A study of Homo sapiens with 2 samples.

Results

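Zinc finger genes with a ZNF, ZBTB, ZSCAN, ZKSCAN or ZFP symbol followed by a number were followed in C4-2 cells, an established line of human prostate cancer cells that descends from LNCaP. The rule was applied to gene symbols only and found 33 of the 1947 genes in the authors' deposited table. Of the 33, 28 were ZNF genes that are not antisense symbols, 3 were antisense RNAs named after a ZNF gene, and 2 were ZBTB genes; no ZSCAN, ZKSCAN or ZFP symbol was listed. Polyadenylated RNA was sequenced from 1 culture given medium with the antihistamine ebastine, and from 1 culture given medium with vehicle. The labels put the cells at passage 10 to 15, and both cultures were kept in the same serum-supplemented medium. The labels state neither the dose nor the exposure time, and the series title names the histone methyltransferase EZH2 as the drug's target. With 1 library per group there is no spread between replicates, no test of the treatment was possible, and every ratio is a difference between these libraries.

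Most of these genes encode proteins that bind DNA through an array of C2H2 fingers, in which a zinc ion is held by a pair of cysteines and a pair of histidines. The largest class also carries a KRAB domain, which recruits the corepressor TRIM28 and, through it, the methyltransferase SETDB1 and heterochromatin proteins, and it is best known for silencing retrotransposons. KRAB zinc finger genes arose by repeated duplication and lie in clusters, many of them on chromosome 19. ZBTB proteins carry a BTB domain in place of the KRAB domain and recruit other corepressors.

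The promoter windows of several lower members were near copies of one another, and they are shown first because the members' direction differed with this likeness. Each run below holds the 250 bases before a gene's start, from RefSeq on GRCh38.p14, in lower case with the CCAAT box or its reverse complement in capitals. ZNF273, ZNF92 and ZNF138 are neighbours on chromosome 7, ZNF43 lies on chromosome 19, and all 4 were lower with ebastine. ZNF91, also on chromosome 19, was higher.
ZNF273: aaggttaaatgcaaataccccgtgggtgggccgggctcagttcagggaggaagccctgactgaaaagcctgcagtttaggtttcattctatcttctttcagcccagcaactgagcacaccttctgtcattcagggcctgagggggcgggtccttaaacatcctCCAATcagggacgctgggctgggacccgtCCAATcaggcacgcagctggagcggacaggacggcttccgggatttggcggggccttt
ZNF92: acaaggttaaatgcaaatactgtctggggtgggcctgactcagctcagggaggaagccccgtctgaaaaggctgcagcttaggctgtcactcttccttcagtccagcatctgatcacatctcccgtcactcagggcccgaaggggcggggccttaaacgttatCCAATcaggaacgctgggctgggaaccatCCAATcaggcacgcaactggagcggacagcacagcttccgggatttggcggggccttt
ZNF138: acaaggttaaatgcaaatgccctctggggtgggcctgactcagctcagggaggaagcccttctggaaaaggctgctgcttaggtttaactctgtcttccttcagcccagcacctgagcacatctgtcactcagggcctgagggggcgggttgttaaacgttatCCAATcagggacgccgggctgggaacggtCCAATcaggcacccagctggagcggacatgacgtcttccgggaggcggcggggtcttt
ZNF43: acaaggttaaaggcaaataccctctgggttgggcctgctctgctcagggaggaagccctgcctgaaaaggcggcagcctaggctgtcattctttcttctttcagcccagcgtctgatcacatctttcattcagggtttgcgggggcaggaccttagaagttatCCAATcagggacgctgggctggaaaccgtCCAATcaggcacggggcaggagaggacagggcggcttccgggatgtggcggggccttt
ZNF91: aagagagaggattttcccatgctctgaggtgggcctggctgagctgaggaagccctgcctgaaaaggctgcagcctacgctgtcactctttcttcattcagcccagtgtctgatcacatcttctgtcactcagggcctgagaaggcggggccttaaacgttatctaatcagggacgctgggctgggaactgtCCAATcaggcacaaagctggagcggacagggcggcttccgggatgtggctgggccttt
The ZNF273 window was chr7:64903023-64903272, the ZNF92 window chr7:65373605-65373854 and the ZNF138 window chr7:64794178-64794427, all on the plus strand. The ZNF43 window was chr19:21836183-21836432 and the ZNF91 window chr19:23395472-23395721, both on the minus strand. Where a gene had several starts, as ZNF273 does, the window most like that of ZNF92 was used. Each of the 4 windows of lower members shown held 2 CCAAT boxes, and the ZNF91 window held 1. The windows of the lower members ZNF257, ZNF100 and ZNF823, not shown, also held 1 each, so the number of boxes did not separate the directions.

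The deposited values are FPKM, in which fragment counts are divided by transcript length in kilobases and by library size in units of 1000000 fragments, and the table lists only genes whose Cuffdiff p-value was under 0.05. Every listed gene therefore already differed between the libraries by that test, and of a gene outside the table no value is known here. The log2 ratio used here is log2((ebastine + 1)/(vehicle + 1)), with a pseudocount of 1 FPKM that understates the difference of low genes. Sequencing depth is unknown, so no counting interval can be given. Of the 608 protein-coding genes in RefSeq whose symbols match the rule, 29 were listed, or 4.77%, against 9.11% of all 20056 protein-coding genes. The ZBTB symbols stood at 2 of 42, while 0 of 21 ZSCAN, 0 of 7 ZKSCAN and 0 of 21 ZFP genes were listed. The files do not say which of these genes were expressed highly enough to be tested.

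The zinc finger genes were low and, by the ratio with a pseudocount, differed by small amounts. Their median level was 3.75 FPKM in the ebastine library and 4.61 FPKM in the vehicle library, against 9.49 FPKM with ebastine and 10.5 FPKM with vehicle over all listed genes. Of the 33, 18 were lower with ebastine (54.5%), beside 55.5% of all listed genes, and 15 were higher, beside 44.5%. Of the 27 that averaged at least 1 FPKM over both libraries, 1 was at least 1.5-fold lower, beside 18.6% of all 1768 listed genes at that level. Also 1 of the 27 was at least 1.5-fold higher, beside 9.67%. These counts rest on the scaling. Median rescaling brought the median ratio of listed genes averaging at least 10 FPKM to about 0. That median rests on genes chosen by p-value, so it depends on how many of them were lower and may not reflect library scale. After median rescaling, 0 of the 27 were 1.5-fold lower, beside 6.9% of the 1768, and 8 were 1.5-fold higher, beside 39.9%. At 2-fold, with the pseudocount and no rescaling, the counts were 0 of 27 lower and 0 of 27 higher, beside 4.86% and 1.81%. Without a pseudocount the authors' fold changes were larger. By them ZNF257 was 2.32-fold lower and ZNF503-AS1 3.31-fold higher, and ZNF582-AS1, ZNF117 and ZNF812 were also more than 2-fold higher. All of these averaged under 1 FPKM. Among the 27, ZNF273 was 1.90-fold lower and ZNF703 1.61-fold higher by the same measure. The median log2 ratio was -0.33 over the 27 and -0.32 over the 1768. A q-value under 0.05 was given by the authors' deposited table to 30.3% of them (10 genes), beside 41% of all listed genes. Of the 33, 8 were both under this limit and lower (24.2%), beside 25.4% of all listed genes, and 2 were under it and higher (6.06%), beside 15.6%.

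**Figure D1:**
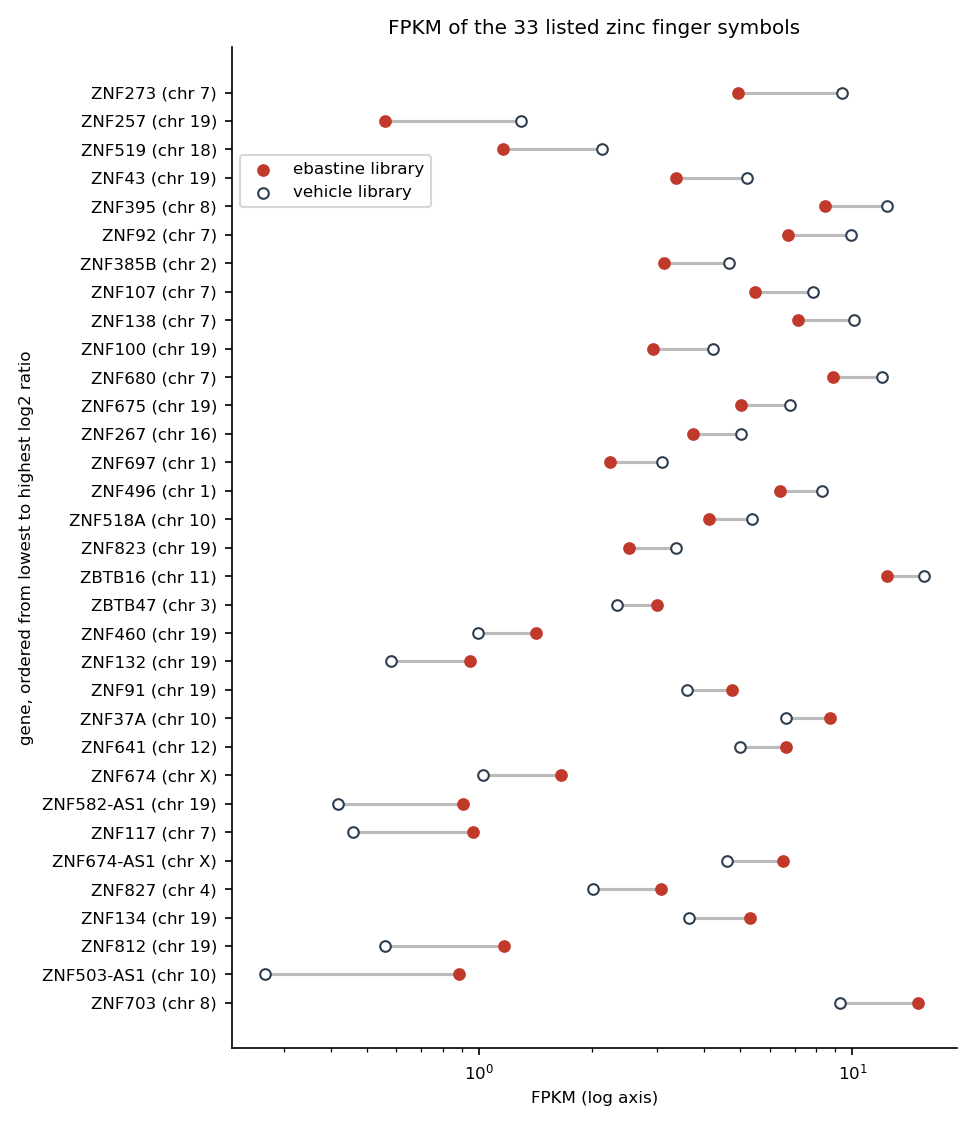
FPKM (log axis) of the 33 zinc finger symbols in the ebastine library (filled) and the vehicle library (open), 1 library each, ordered from the lowest log2 ratio (ZNF273, -0.81) at the top to the highest (ZNF703, 0.63). The 18 lower members have the filled point on the left and the 15 higher members have it on the right.

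**Figure D2:**
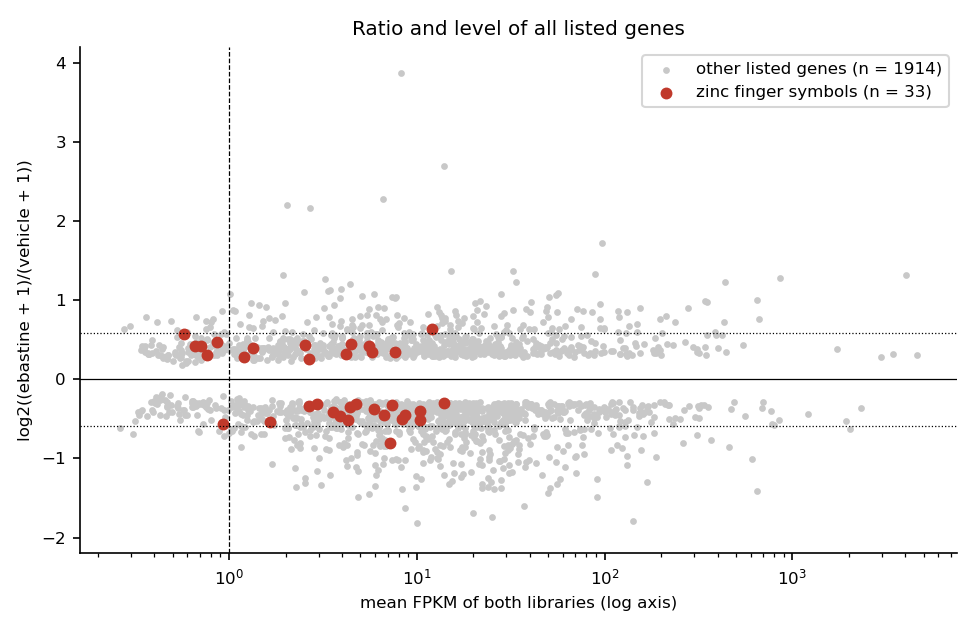
Log2 ratio of ebastine over vehicle against mean FPKM (log axis) for the 33 zinc finger symbols and the other 1914 listed genes. Dotted lines mark 1.5-fold, the dashed line marks a mean of 1 FPKM, and the band around 0 holds no listed gene; no zinc finger gene had a mean above 14.0 FPKM.

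Chromosome 19 held members of both directions. There, 11 members were listed, 5 lower and 6 higher, while of the 22 members elsewhere 13 were lower and 9 were higher. The median log2 ratio was -0.31 over the 7 chromosome 19 members that averaged at least 1 FPKM, and 0.28 over all 11. The other 110 listed genes of chromosome 19 numbered 58 below 0 and 52 above 0, and their log2 ratios centred on -0.33 (median) above the same level. Listed members on chromosome 19 made up 3.4% of its 265 coding genes that match the rule, against 15.4% of the 39 on chromosome 7. Members whose neighbouring starts lay within 500 kb formed 5 runs holding 15 members, of which 3 runs were on chromosome 19, 1 on chromosome 7 and 1 on the X chromosome.

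The chromosome 7 run was the longest and nearly all of it was lower with ebastine. It spanned 0.886 Mb (hg19, chromosome 7, 63980255 to 64866047), and between its outer members RefSeq places 6 genes that match the rule, all 6 of which were listed. ZNF273 (64330550 to 64391955), a KRAB protein with 10 C2H2 fingers, had 4.94 FPKM in the ebastine library and 9.40 FPKM in the vehicle library. It was the lowest of all 33 by ratio, 1.75-fold lower (log2 ratio -0.81), and the authors' deposited table gave it a q-value of 0.00178. ZNF92 (64838768 to 64866047), at the far end of the run, had 6.70 FPKM with ebastine against 9.94 FPKM with vehicle, a 1.42-fold difference.

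The other lower members of the run were close to ZNF92 in size of difference. ZNF107, a KRAB protein with 16 fingers, had 5.49 FPKM with ebastine and 7.85 FPKM with vehicle. ZNF138, whose reference protein holds only 2 complete fingers by the pattern used, had 7.15 FPKM with ebastine and 10.1 FPKM with vehicle. ZNF680, with 12 fingers, had 8.89 FPKM with ebastine and 12.01 FPKM with vehicle. Their log2 ratios were -0.45, -0.45 and -0.40, and of the 5 lower genes ZNF273 and ZNF107 were under 0.05 by q-value in the authors' deposited table.

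ZNF117 was the exception in this run, with 0.959 FPKM in the ebastine library and 0.460 FPKM in the vehicle library. Its locus (64434830 to 64467124) is the same as that reported for ERV3-1, a gene for the envelope protein of an endogenous retrovirus, which had 2.71 FPKM with ebastine and 1.76 FPKM with vehicle. Reads at this locus may be split between these genes by the authors' software, so the values are uncertain individually; both were higher. The other 87 listed genes of chromosome 7 were 45 lower and 42 higher.

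**Figure D3:**
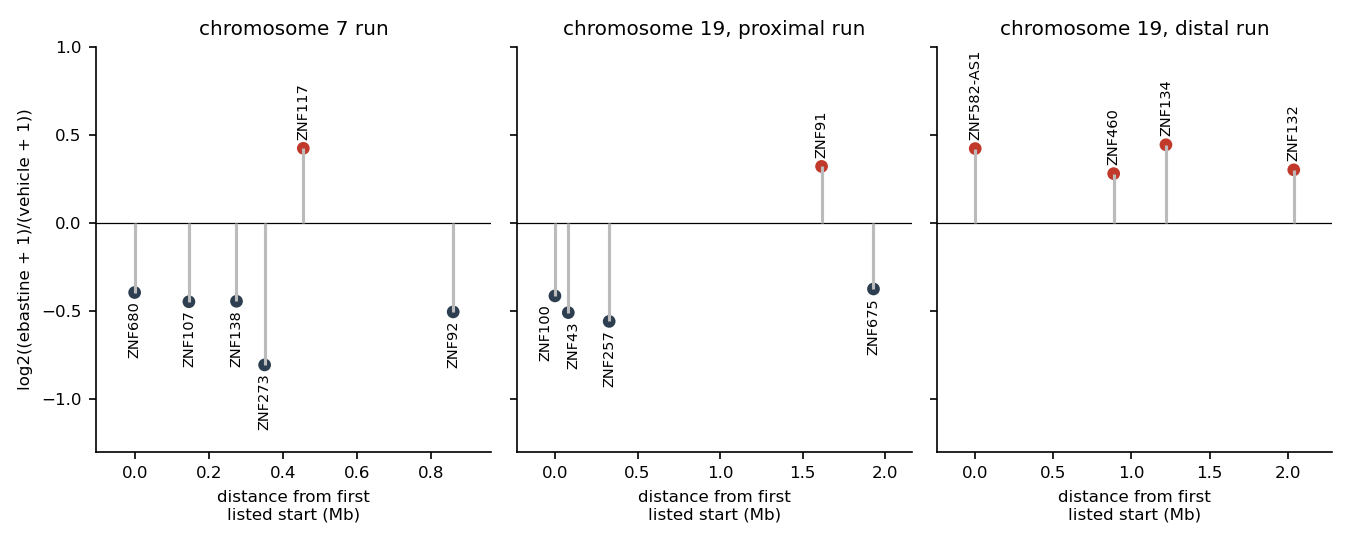
Log2 ratio of ebastine over vehicle for listed members along 3 stretches, by distance (Mb) from the first listed start of each. In the chromosome 7 stretch 5 of 6 lie below 0, in the proximal chromosome 19 stretch 4 of 5 lie below 0, and in the distal chromosome 19 stretch all 4 lie above 0.

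On chromosome 19 the proximal and the distal members went opposite ways. The proximal members were 5 KRAB genes, and 4 of them were lower. ZNF43 (21987751 to 22034870), with 19 fingers, had 3.36 FPKM with ebastine and 5.21 FPKM with vehicle, a log2 ratio of -0.51. Its neighbour ZNF100 (21906843 to 21950430) had 2.91 FPKM with ebastine and 4.22 FPKM with vehicle. ZNF257 (22235266 to 22273903) had 0.559 FPKM with ebastine and 1.30 FPKM with vehicle, so its mean lay just under 1 FPKM. These 3 formed 1 run of 0.367 Mb, and the authors' deposited table gave ZNF43 a q-value of 0.00466, ZNF100 0.0478 and ZNF257 0.00178. Without a pseudocount the authors' log2 fold change of ZNF257 was -1.22, the most negative of the 33, against -0.56 on the log2 scale with a pseudocount of 1.

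The next pair along the chromosome was split. ZNF675, also known as TIZ for its binding to the signalling adaptor TRAF6, had 5.03 FPKM with ebastine and 6.82 FPKM with vehicle. ZNF91 (23521418 to 23578269), which represses SVA retrotransposons and has the longest array among the members with 31 fingers, had 4.76 FPKM with ebastine and 3.61 FPKM with vehicle. ZNF91 was thus 1.25-fold higher beside 4 lower relatives, with a q-value of 0.185 by the authors' deposited table. RefSeq places 19 genes that match the rule between ZNF100 and ZNF675, of which 5 were listed, and nothing is known here of the other 14.

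The 4 distal members were all higher, with q-values between 0.194 and 0.258 by the authors' deposited table. ZNF134 (58125830 to 58154147), with 10 fingers and no KRAB pattern, had 5.32 FPKM with ebastine and 3.65 FPKM with vehicle. ZNF460 had 1.42 FPKM with ebastine and 0.992 FPKM with vehicle, and ZNF132 had 0.946 FPKM with ebastine and 0.579 FPKM with vehicle. The antisense RNA ZNF582-AS1 had 0.902 FPKM with ebastine and 0.419 FPKM with vehicle. These 4 were spread over 2.05 Mb in which RefSeq places 63 genes that match the rule. ZNF460, ZNF132 and ZNF582-AS1 lay near or under 1 FPKM in both libraries. Among members averaging under 1 FPKM 5 of 6 were higher, as were 101 of the other 173 listed genes at that level.

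The remaining chromosome 19 members lay apart. ZNF823, a KRAB gene with 15 fingers, had 2.52 FPKM with ebastine and 3.36 FPKM with vehicle, at the largest p-value of the table (0.0499). ZNF812, which the reference now calls the pseudogene ZNF812P, had 1.16 FPKM with ebastine and 0.558 FPKM with vehicle.

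Members whose promoters were alike were mostly lower, and the others were mostly higher. RefSeq held promoter windows for 28 of the 33 members. A window was counted as like that of ZNF92 at an identity of at least 60% of its 250 bases. Of the 13 members above this limit, ZNF92 included, 12 were lower with ebastine (92.3%) and 1, ZNF91, was higher. Of the other 15, 4 were lower (26.7%) and 11 were higher, while 55.5% of all listed genes were lower. The median log2 ratio was -0.45 in the 13 and 0.35 in the 15. It was -0.16 and 0.59 after median rescaling, and -0.26 and 0.52 after upper quartile rescaling, with the same counts by sign. Few signs could turn, because the p-value limit left no listed gene near 0. All listed genes were 867 higher and 1080 lower before and after upper quartile rescaling, and 946 and 1001 after median rescaling. The unchanged counts thus add nothing to the split. Just inside the limit lay ZNF267 (61.2%) and ZNF823 (62%), and just outside it ZBTB47 (54.8%), whereas ZNF138 and ZNF257 reached 86%. The anchor gene and the limit were chosen after the values had been seen, so this split is a description without a test.

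The alike windows came from several chromosomes. They belonged to 5 members of chromosome 7, 6 of chromosome 19, ZNF267 on chromosome 16 and ZNF519 on chromosome 18. ZNF519 had 1.15 FPKM with ebastine and 2.14 FPKM with vehicle, and a q-value of 0.0126 by the authors' deposited table. ZNF267 had 3.75 FPKM with ebastine and 5.03 FPKM with vehicle. All 13 encode proteins with a KRAB pattern. A q-value under 0.05 was given by the authors' deposited table to 6 of the 13 (46.2%), beside 41% of all listed genes; these 6 were lower.

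In the reference as a whole such windows were rare. Of 27305 genes with a window, 61 reached 60% identity to ZNF92, while the median gene stood at 50.4% and the 99th percentile at 57.2%. Of the 61, 53 had a symbol matching the rule, and 13 of those 53, or 24.5%, were in the deposited table, beside 5.56% of all 27305; the other 40 were not listed and have no value here. The only listed gene among the 8 others was ERV3-1, whose window was 82.8% identical and which was higher. Its reported locus is that of ZNF117, whose own window (50%) lay below the limit and which was also higher. The values of these genes are uncertain individually. Over the 13 and ERV3-1, 14 listed genes, 12 were lower and 2 were higher. The 24.5% includes ZNF92 itself, chosen among listed genes after the values had been seen, so this choice can raise the share. The 27305 genes include noncoding ones. Of all protein-coding genes 9.11% were listed, and of those matching the rule 4.77%.

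CCAAT boxes were frequent in these windows. The motif was searched as CCAAT on both strands, and at least 2 matches were found in 9 of the 13 alike windows and in 1 of the other 15. In the whole reference 9.53% of 35116 windows held at least 2 matches. The 13 windows were picked for likeness to that of ZNF92, which itself holds 2 matches. Their shared boxes thus follow in part from that choice and are no separate finding. A GC box, searched as GGGCGG on both strands, was in 53.8% of the 39 windows of members against 42.6% of all windows, and the E2F-type motif TTTNGCGC was in 0 of the 39 against 1.51% of all. These matches describe letters in the window only.

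**Figure D4:**
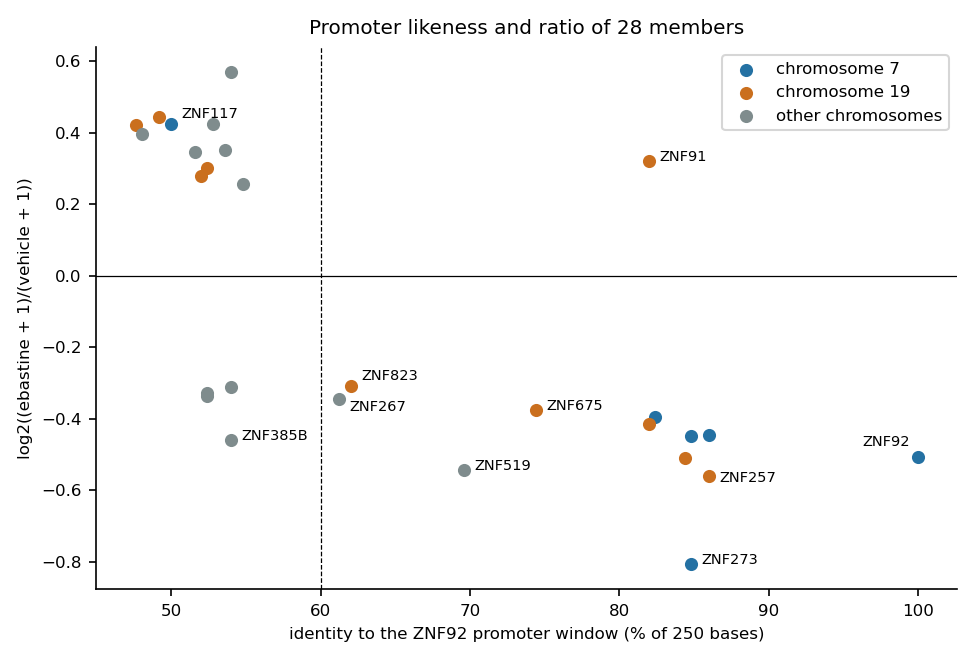
Log2 ratio of ebastine over vehicle against the identity of each member's 250-base promoter window to that of ZNF92, for 28 members coloured by chromosome; the dashed line marks 60%. To the right of it 12 of 13 points lie below 0, ZNF91 being the exception, and to the left 11 of 15 lie above 0.

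Split by fingers or by the KRAB domain, members were lower in shares of 50% to 68.4%, beside 55.5% of all listed genes. The reference proteins of 29 members were read for C2H2 fingers, of which the median member held 10, and for a KRAB pattern, which 19 held. Of the 19 KRAB members 13 were lower (68.4%) and 6 higher, and of the 10 coding members without the pattern 5 were lower (50%) and 5 higher. The 6 KRAB members whose promoter was not like that of ZNF92 were 1 lower (ZNF496) and 5 higher (ZNF37A, ZNF132, ZNF460, ZNF641 and ZNF674). Members with at least 10 fingers were 11 lower (61.1%) and 7 higher, and those with fewer were 7 lower (63.6%) and 4 higher.

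The higher KRAB members outside chromosome 19 differed by 1.27-fold to 1.32-fold. ZNF37A had 8.69 FPKM with ebastine and 6.63 FPKM with vehicle, and ZNF641 had 6.63 FPKM with ebastine and 4.98 FPKM with vehicle. On the X chromosome ZNF674 had 1.66 FPKM with ebastine and 1.02 FPKM with vehicle. The antisense RNA ZNF674-AS1, which starts beside it, had 6.53 FPKM with ebastine and 4.61 FPKM with vehicle. The sources used here do not say whether reads were assigned by strand. ZNF496, whose mouse counterpart binds the histone methyltransferase NSD1, had 6.40 FPKM with ebastine and 8.28 FPKM with vehicle. All 3 antisense symbols in the table were higher, the third being ZNF503-AS1 at 0.881 FPKM with ebastine and 0.266 FPKM with vehicle.

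Among the coding members without a KRAB pattern, ZNF703 had the highest ratio. ZNF703 (chromosome 8, 37553301 to 37556396), a transcriptional corepressor amplified in luminal breast cancer, had 15.0 FPKM with ebastine and 9.28 FPKM with vehicle. This 1.55-fold difference was the only one among the 27 at least 1.5-fold higher, with a q-value of 0.00334 by the authors' deposited table. ZNF827, which recruits the NuRD complex to telomeres in cells that lengthen them by recombination, had 3.06 FPKM with ebastine and 2.01 FPKM with vehicle. No other higher member was under 0.05 by q-value in the authors' deposited table, which gave ZNF827 a value of 0.0449.

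Lower members without a KRAB pattern were ZNF395, ZNF385B, ZNF697, ZNF518A and ZBTB16. ZNF395, a factor known to be induced in hypoxia, had 8.42 FPKM with ebastine and 12.4 FPKM with vehicle. ZNF385B had 3.12 FPKM with ebastine and 4.66 FPKM with vehicle. The authors' deposited table gave ZNF395 a q-value of 0.0193 and ZNF385B 0.0253. ZNF697 and ZNF518A were 1.26-fold and 1.24-fold lower. The ZNF395 transcript shares 41.7% of its 50-base words with transcripts annotated to FBXO16, so its value can include reads of that gene.

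The BTB class had 2 listed members and small differences. ZBTB16, known as PLZF and as an androgen-responsive repressor, had 12.4 FPKM in the ebastine library, below ZNF703 alone among members, and 15.6 FPKM in the vehicle library, the highest of the 33 there. This 1.23-fold lower value was the only direction among the 33 that turned after median rescaling, to a log2 ratio of 0.009. ZBTB47 had 2.99 FPKM with ebastine and 2.34 FPKM with vehicle. By the authors' deposited table ZBTB16 had a q-value of 0.331 and ZBTB47 0.337.

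Of the partner genes looked up, those listed were on the list of KRAB corepressor genes. Of its 27 genes 6 were listed (22.2%), beside 9.11% of all protein-coding genes. The lists were chosen with earlier results of these data known, and this choice can raise the share. All 6 were lower, beside 55.5% of all listed genes, but after median rescaling 3 were lower and 3 higher. Their median log2 ratio was -0.33, beside -0.31 over all listed genes. By the authors' deposited table their q-values ran from 0.0667 (SUV39H1) to 0.322 (CBX3), while 41% of all listed genes were under 0.05. The heterochromatin protein CBX5 had 22.8 FPKM with ebastine and 28.96 FPKM with vehicle, and the H3K9 methyltransferase SUV39H1 had 5.08 FPKM with ebastine and 7.23 FPKM with vehicle. The other 4 were CBX3, HDAC2, SUMO2 and SUV39H2, whose reported locus is the same as that of ACBD7. TRIM28 and SETDB1 were not listed, and 0 of 19 BTB and SCAN partner genes were listed. Of 137 zinc finger genes with other symbols 6 were listed (4.38%), near the 4.77% of coding genes matching the rule. Of these 6, 3 were lower and 3 (KLF7, PRDM16 and TSHZ2) were higher. The largest difference among them was that of KLF4, a growth-arrest factor, with 2.67 FPKM with ebastine and 6.29 FPKM with vehicle.

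Reads of close relatives can be exchanged in this family, and exact matches between annotated transcripts give a partial view of it. Matches with mismatches were not counted, so the extent can be larger. The share of a member's 50-base words found in transcripts of another gene had a median of 1.17% over the 33, and 23 members were under 5%. It was 7.76% for ZNF273, 13.5% for ZNF100 and 18.3% for ZNF519, and between 0.0918% and 18.3% over the 13 with alike promoters. Of 13 prostate luminal markers 8 were listed (61.5%), beside 9.11% of all protein-coding genes. Of these 8, 5 were higher and 3 lower with ebastine, at a median log2 ratio of 0.47, while 44.5% of all listed genes were higher. FOLH1, which encodes the surface antigen PSMA, had 840.4 FPKM with ebastine and 494.9 FPKM with vehicle, whereas KLK3, which encodes PSA, had 1599 FPKM with ebastine and 2476 FPKM with vehicle. No basal (0 of 5), fibroblast and endothelial (0 of 7), leukocyte (0 of 6) or neuroendocrine (0 of 4) marker was listed. With 9.11% of coding genes listed, sets this small can easily hold no listed gene. An unlisted gene can still be expressed, so these counts do not show which cell types were absent. The nuclear RNA MALAT1 had 864.8 FPKM with ebastine and 429.9 FPKM with vehicle; its part in the zinc finger values was not tested.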

How the data were processed

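One RNA-seq library of ebastine-treated and 1 of vehicle-treated C4-2 cells were used. TopHat2, Cuffdiff and the hg19 build are named without versions, per the submitters' processing notes; gene models, strand setting and scaling are not stated there. The authors deposited FPKM values per gene, their log2 fold change, a Cuffdiff test statistic (a score not used here), and a p-value and q-value, per the file headers. The largest deposited p-value was 0.0499. Those p-values come from 1 library per group and compare these libraries only.

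Starts in the file were taken to count from 0 and were converted. Members were found by symbol; members and lists were chosen with earlier results of these data known. Ratios used a pseudocount of 1 FPKM, counts of fold a minimum mean of 1 FPKM and a limit of 1.5-fold. The rule named the 12 highest and 12 lowest ratios, members with a q-value under 0.05, all ZBTB members and members of chromosome 19 runs of at least 3; the rest of the 33 were named after their values were seen. It also provided for protein sequences; promoter windows were shown in their place. Fingers (C, 2 to 4 residues, C, 12 residues, H, 3 to 5 residues, H), a KRAB pattern and 50-base words came from the GENCODE transcript with the longest coding part. Promoter identity came from global alignment in Biopython 1.88. The counting was tested on simulated data. Alternatives were pseudocounts, minima, rescaling, a q-value limit, fold limits and run distances.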

Additional observations from a re-analysis of the deposited data

How the results depend on the processing

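No paired analysis was possible because each group holds 1 library; leaving out a library leaves no comparison. A pseudocount cannot turn a direction. Upper quartile rescaling turned no member, but it also left all listed genes at 867 higher and 1080 lower. The p-value limit left a band around 0 empty, so unchanged directions say little about the members. Only ZBTB16 turned with median centring, which multiplies ebastine values by 1.26 (0.34 on the log2 scale). Both rescaling factors were taken from listed genes only. Fold counts depended on the settings. The count of members at least 1.5-fold higher (1) was 2 with a pseudocount of 0.1, 0 with a pseudocount of 5 and 0 at 2-fold. It was 8 after centring (29.6%), beside 39.9% of all listed genes at that level. After upper quartile rescaling (0.21 on the log2 scale) it was 4 (14.8%), beside 24.4%. The count at least 1.5-fold lower (1) was 3, 0 and 0 with a pseudocount of 0.1, a pseudocount of 5 and centring, and 0 at 2-fold. Of all listed genes 6.9% were that much lower after centring. Their shares were not counted at the other pseudocounts or at a mean of at least 5 FPKM. The median log2 ratio of members (-0.33) was -0.20 with a pseudocount of 5, -0.061 after centring, -0.16 after upper quartile rescaling and -0.46 at a q-value under 0.05. That of chromosome 19 members (-0.31) was -0.15, -0.061, -0.16 and -0.46 under the same settings, and 0.28 with no minimum level. Members higher and lower in sign (15 and 18) were 4 and 9 at a mean of at least 5 FPKM and 2 and 8 at a q-value under 0.05. Of members with a promoter like that of ZNF92, 6 of 6 were lower under each of these limits and 12 of 13 after either rescaling. At identities of at least 65% and 70% the counts were 10 of 11 and 9 of 10. These alternatives were chosen after seeing the data, and the rescalings could turn few directions. Chromosome 19 runs (3) numbered 1 at a distance of 250 kb. Fewer genes enter the stricter limits; otherwise the cause was not tested. Unknown depth limits the low members most.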
